A study of Mus musculus with 16 samples.

Results

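The genes described here encode 7 subunits of the receptors for gamma-aminobutyric acid (GABA), the main inhibitory transmitter of the brain. They were taken from a list of names, and not by a threshold on their counts, from the 25006 genes listed for messenger RNA of substantia nigra pars compacta (SNc) dopaminergic neurons. Gabra2, Gabra3 and Gabra4 encode alpha subunits of the GABA-A receptor, Gabrb1 a beta subunit and Gabrg1 a gamma subunit. Gabbr1 and Gabbr2 encode the subunits of the GABA-B receptor. All 7 were listed and had enough counts to be tested.

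GABA-A receptors are chloride channels assembled from alpha, beta and, in most receptors at synapses, gamma subunits. The alpha subunit sets much of the kinetics of the current and whether benzodiazepines act on the receptor. GABA-B receptors are G protein-coupled receptors that work only as heterodimers, in which Gabbr1 binds GABA and Gabbr2 couples to the G protein and brings its partner to the cell surface. In dopaminergic neurons they open inwardly rectifying potassium channels, and both receptor kinds receive dense input from the striatum, the globus pallidus and the neighbouring pars reticulata.

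The control group held 8 DAT-Cre+/- mice, and the MCU-KO group 8 DAT-Cre+/- MCU fl/fl mice, in which Cre recombinase deletes the gene of the mitochondrial calcium uniporter, Mcu. Both groups therefore carried the same Cre allele, driven by the promoter of the dopamine transporter, and both received in the SNc an AAV9 vector with a Cre-dependent tagged ribosomal protein (RiboTag, Rpl22l1-Myc-DDK). All 16 mice were at postnatal day 45 by the labels, and the tissue was taken 30 days after injection. Tagged ribosomes were immunoprecipitated with their RNA, and 1 library was sequenced per mouse, so the values are ribosome-bound messenger RNA of infected, Cre-positive cells together with any RNA that came along unspecifically.

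Counted reads per library ranged from 14129527 to 22016362, and 3 counts, used here as a detection floor, corresponded to 0.136 to 0.212 CPM, counts scaled to the total of the library. Mcu itself ranged from 120.3 to 828.2 normalized counts in control mice, with a median of 401, and from 5.82 to 410.1 in MCU-KO mice, with a median of 246.3. The groups thus overlapped for the targeted gene. Counts are summed over the whole gene, the deleted exons are not named in the sources used here, and the origin of the remaining Mcu counts was not tested. The paper verified the knockout by quantitative PCR of Mcu in RiboTag RNA and by imaging of mitochondrial calcium. Summed over 10 markers of dopaminergic neurons, the level was between 13910 and 17560 CPM in control and between 12250 and 19760 CPM in MCU-KO mice. Oligodendrocyte markers summed to between 2742 and 5516 CPM in control and 3283 and 6590 CPM in MCU-KO mice, astrocyte markers to between 531.7 and 1049 CPM and 617.3 and 1250 CPM, and GABAergic neuron markers to between 200.8 and 449.4 CPM and 171 and 421.6 CPM. Astrocyte markers were higher in MCU-KO mice for 7 of 9 genes, oligodendrocyte markers for 6 of 8 and GABAergic neuron markers for 4 of the 6 tested. Microglia markers were higher for 6 of 7 (median sums of 82.9 CPM in control and 137.5 CPM in MCU-KO mice). Endothelial markers were higher for 0 of the 3 tested (20.6 and 9.56 CPM). Dopaminergic neuron markers were higher for 4 of 10 and oligodendrocyte precursor markers for 2 of 4. No marker passed the threshold, and of all 12390 genes tested 6241 were higher. The part of other cells in the subunit counts was not tested, and in bulk libraries fewer cells of a type cannot be told apart from less RNA per cell.

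Where benzodiazepines act, the alpha subunits differ in 1 residue, a histidine in the diazepam-sensitive alpha subunits and an arginine in the insensitive Gabra4 subunit. The coding stretches around that codon are shown because the levels of these alpha subunit genes are compared below. They were read 5′ to 3′ on the coding strand from the longest GENCODE M21 coding transcripts (GRCm38), 30 bases each and within a single coding exon, with the codon in capitals.
Gabra2, chr5:71014490-71014519, minus strand, exon 5: gataccttctttCACaatgggaaaaagtca
Gabra3, chrX:72501153-72501182, minus strand, exon 5: gataccttcttcCACaatggtaaaaaatca
Gabra4, chr5:71641137-71641166, minus strand, exon 4: gatactttcttcAGGaatggaaagaaatct

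Counted from 1 at the 5′ end of the stretch, the codon of Gabra4 differs from that of Gabra2 and Gabra3 by C13A, A14G and C15G. Over the whole stretch Gabra2 and Gabra3 were identical at 27 of 30 bases, Gabra2 and Gabra4 at 21, and Gabra3 and Gabra4 at 23. For the GABA-B receptor, the stretch that encodes the retention signal of Gabbr1 is shown, since this signal holds the subunit in the endoplasmic reticulum until Gabbr2 masks it. It lies in the last exon, exon 23, and its 4 codons are in capitals.
Gabbr1, chr17:37072898-37072927, plus strand, exon 23: cagcagatcCGCTCCCGGCGCcacccccca

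In the translated longest coding transcript of Gabbr2 the same residues had 0 matches.

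The level of each gene was first examined in control mice, to ask which subunits these neurons could combine. Levels of different genes are compared per length, as normalized counts (counts divided by the size factor of the library) per kb of all annotated exons. Gabbr1 was the highest, at 1676 ± 254 normalized counts per kb (SD, n = 8). Gabbr2 followed at 478 ± 135 normalized counts per kb. The GABA-A genes of the set had lower means on this scale, and the first of them, Gabra4, an alpha subunit found mainly in receptors outside synapses, had 285 ± 107 normalized counts per kb. Gabra3, the alpha subunit long associated with SNc dopaminergic neurons, had 197 ± 83.4 normalized counts per kb. Gabrb1 had 153 ± 56.1 normalized counts per kb. Gabra2 and Gabrg1 were far lower, and the first, an alpha subunit known from forebrain synapses, had 28.4 ± 15.8 normalized counts per kb. Gabrg1, a gamma subunit otherwise known from amygdala and glia, had 19.6 ± 14.3 normalized counts per kb. Among all genes tested, normalized counts in control mice put Gabbr1 at percentile 98.4 and Gabrg1 at percentile 22.1, without regard to length.

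**Figure D1:**
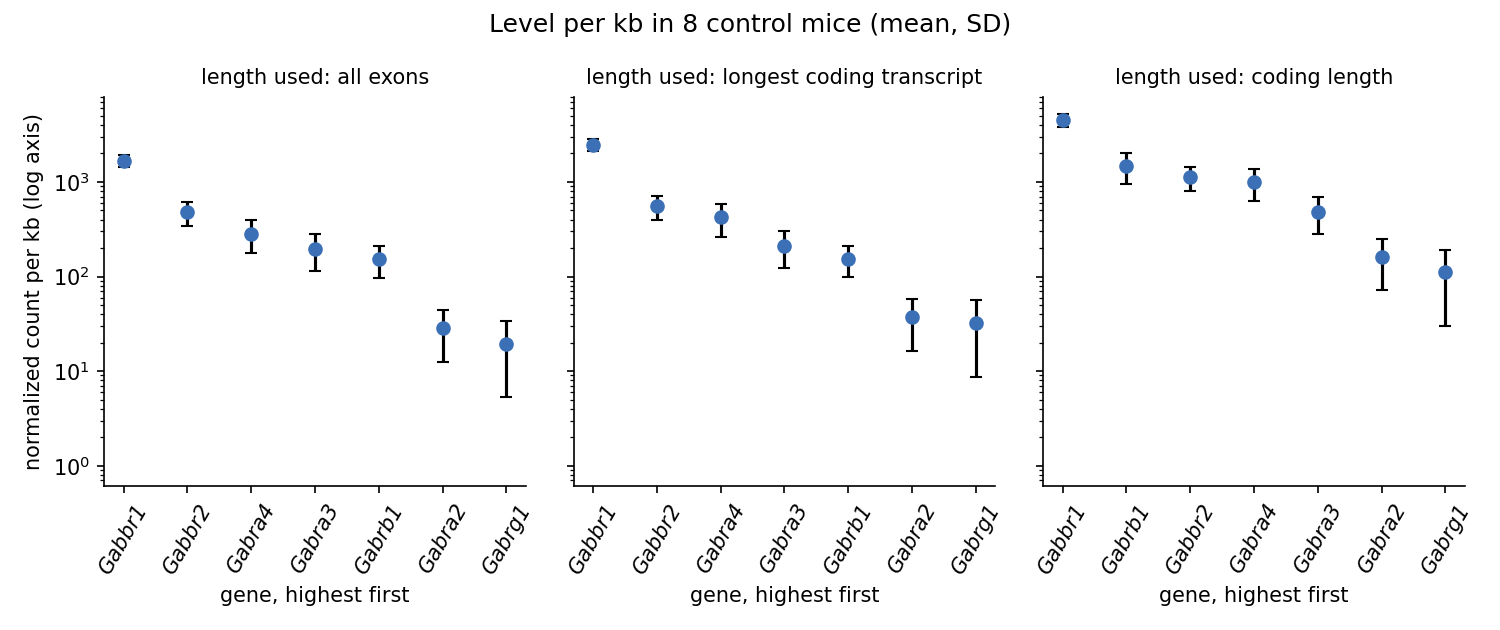
Normalized counts per kb (log axis) of the 7 subunit genes in 8 control mice, as mean (point) and SD (bar), with the genes sorted from highest to lowest for each of 3 definitions of gene length. Gabbr1 stays first and Gabra2 and Gabrg1 last under all 3, while Gabrb1 moves from rank 5 to rank 2 when only the coding length is used.

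Neighbours in this order were compared within each control mouse, as the log2 ratio of their levels per kb, with a two-sided exact sign-flip permutation test and adjustment over the 6 ratios. The order came from the same 8 mice, so the pairs and their direction were set by the values tested. The p values are therefore no independent support for the order. With 8 mice this test cannot give a p below 0.00781. Gabbr1 exceeded Gabbr2 in 8 of 8 mice, by 1.85 ± 0.40 on the log2 scale (SD), a ratio of 3.6 (exact permutation p = 0.00781, adjusted p = 0.0234). Gabrb1 exceeded Gabra2 in 8 of 8 mice, by 2.58 ± 0.73 on the log2 scale, a ratio of 5.99 (exact permutation p = 0.00781, adjusted p = 0.0234). These were the 2 steps in the order that passed the test. Gabbr2 was above Gabra4 in 6 of 8 mice, with a mean log2 ratio of 0.77 ± 0.75 that missed the threshold after adjustment (exact permutation p = 0.0312, adjusted p = 0.0625). Gabra4 was above Gabra3 in 7 of 8 mice, with a mean log2 ratio of 0.59 ± 0.81 (exact permutation adjusted p = 0.141). Gabra3 and Gabrb1 had a mean log2 ratio of 0.30 ± 0.80, and Gabra2 and Gabrg1 one of 0.53 ± 1.13, each with the first gene above the second in 5 of 8 mice (exact permutation adjusted p = 0.312 and 0.309). These 4 neighbouring pairs did not pass the adjusted test, which with 8 mice does not show that their levels were equal.

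The order in the middle depended on gene length. Gabrb1 has 13838 bases of exon but a coding length of 1422 bases, so most of the length that divides its counts is untranslated. Per kb of coding length Gabrb1 had 1492 ± 546 normalized counts and ranked second. It then exceeded Gabra3, with a log2 ratio of Gabra3 to Gabrb1 of -1.68 (exact permutation adjusted p = 0.0156). A change of length shifts a ratio by nearly the same amount in every mouse, so such a p follows from the length chosen. Reads on untranslated exons are counted too, so dividing by coding length alone raises genes with long untranslated parts, such as Gabrb1. Gabra4 exceeded Gabra3 by 1.1 on the log2 scale per kb of coding length (exact permutation adjusted p = 0.0234) and by 1.05 per kb of the longest coding transcript (exact permutation adjusted p = 0.0312). Per kb of all exons the same ratio was 0.78 without control mouse 3, which had the highest Gabra3 count of all (exact permutation adjusted p = 0.0312). Of the 8 settings that left out a control mouse, this was the only 1 in which the ratio passed the threshold.

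Shares within each subunit class, again of normalized counts per kb of exon, place the set among the other GABA-A subunits. Of the alpha level in control mice, Gabra4 made up 30.6 ± 8.35% and Gabra3 21.2 ± 7.9% (SD, n = 8). Gabra2 made up 2.99 ± 1.56%. Gabra6, the alpha subunit of cerebellar granule cells, had 0 counts in all 16 mice, which allows at most 0.136 to 0.212 CPM. Gabra4 and Gabra3 thus made up most of what the 3 alpha genes of the set gave to the class.

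Of the beta level in control mice, Gabrb1 made up 38.9 ± 6.64%. Per kb of coding length its share was 58.2%. Of the summed gamma, delta, epsilon, theta and pi level, Gabrg1 made up 4.19 ± 2.5%. Gabrg3 had 16.8 ± 9.91 and Gabrq, which encodes the theta subunit, 31.4 ± 33.3 normalized counts per kb of exon in control mice, beside 19.6 for Gabrg1. Gabrd, which encodes the delta subunit that joins Gabra4 in many receptors outside synapses, had no count in 5 of 8 control mice and at most 28 counts in the others. It had no count in 1 of 8 MCU-KO mice and at most 114 in the others, and was too low to be tested. Of the GABA-B level, Gabbr1 made up 78.0 ± 4.68% and Gabbr2 22 ± 4.68%.

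Summed per class and per kb of exon, beta subunits reached 0.422 ± 0.0773 of the alpha level in control mice, and gamma with the other subunits 0.485 ± 0.113 of it. The GABA-B genes together reached 2.40 ± 0.527 times the alpha level. Per kb of coding length these 3 ratios were 0.676 ± 0.155, 0.514 ± 0.125 and 1.56 ± 0.352, so the GABA-B sum exceeded the alpha sum under both definitions in each control mouse, with a lowest ratio of 1.54 and 1.01. Which subunits meet in 1 receptor cannot be read from messenger RNA of whole cell populations.

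**Figure D2:**
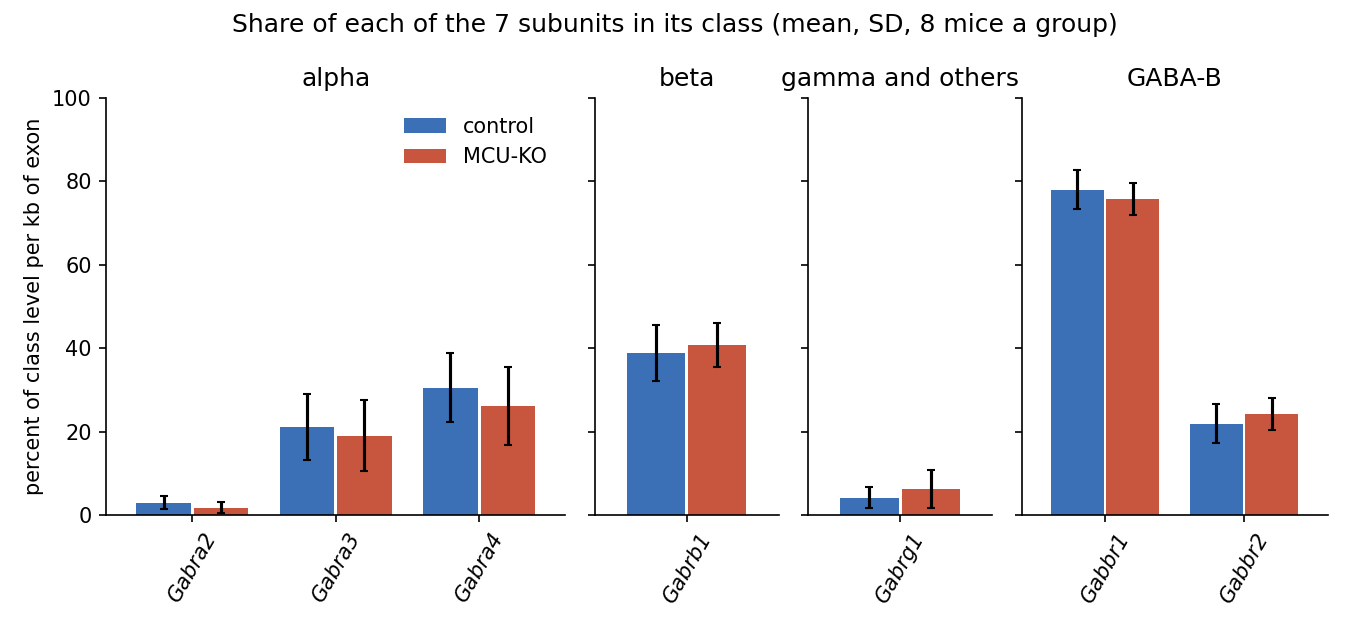
Percent of the summed level per kb of exon of its class made up by each of the 7 subunit genes, for alpha, beta, gamma with other, and GABA-B subunits, as mean and SD (bars) over 8 control and 8 MCU-KO mice. Each class is summed over all of its measured subunits, and the bars show the 7 genes described here. Gabra4 and Gabra3 take larger shares of the alpha level than Gabra2, and Gabrg1 is a small part of its class.

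Control and MCU-KO mice were then compared, to ask whether these receptor genes differ between the genotypes. The groups were bred separately, so the deletion of the uniporter cannot be told apart from other differences between the breedings. None of the 7 passed the test. edgeR's quasi-likelihood test, adjusted by Benjamini-Hochberg over all 12390 genes tested, called 22 of them, a background of 0.178%, and 0 of the 7. At an unadjusted p under 0.05 the test had 547 genes, or 4.41%, and again 0 of the 7. DESeq2 called 90 genes, or 0.557% of those it tested, and limma-voom 27, or 0.218%, each with 0 of the 7. Without overlap between the groups in normalized counts were 32 genes, or 0.258%, and 0 of the 7. Of the 7, 4 were higher and 3 lower in MCU-KO mice, with a median log2 fold change of 0.01 beside 0.00 over all genes tested.

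The GABA-B genes had the narrowest intervals. Gabbr1 ranged from 10240 to 16007 normalized counts in control mice, with a median of 12733, and from 11285 to 14823 in MCU-KO mice, with a median of 13107. The MCU-KO values all lay inside the control range. The means were 13013 ± 1971 and 13078 ± 1104 normalized counts (SD, n = 8 each), and the log2 fold change was 0.01 with an SE of 0.09 (edgeR adjusted p = 1.00). The 95% interval ran from 0.881 to 1.15 times the control level.

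Gabbr2 ranged from 2100 to 4185 normalized counts in control mice, with a median of 3229, and from 2462 to 4635 in MCU-KO mice, with a median of 3631. Control values fell into 3 mice near the low end (mice 1, 4 and 7) and 3 near the high end (mice 3, 6 and 8). The lowest MCU-KO mouse lay above the 3 low control mice, and the groups overlapped in the rest of the range. The log2 fold change was 0.18 with an SE of 0.16, and the 95% interval ran from -0.15 to 0.52. The per-mouse log2 ratio of Gabbr1 to Gabbr2 was 1.85 ± 0.40 in control and 1.65 ± 0.31 in MCU-KO mice, a difference of -0.20 (two-sided exact permutation test over 12870 splits, p = 0.289, adjusted over 4 ratios p = 0.578).

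Among the alpha subunits, Gabra4 ranged from 1090 to 3060 normalized counts in control mice, with a median of 1661, and from 1013 to 2624 in MCU-KO mice, with a median of 1272. In the MCU-KO group mice 2, 3 and 4 had 2145 to 2624 normalized counts and the other 5 mice 1013 to 1291, and in the control group mouse 1 was the highest. The log2 fold change was -0.10 with an SE of 0.24, and the 95% interval ran from -0.60 to 0.40.

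Gabra3 ranged from 239.4 to 1349 normalized counts in control mice, with a median of 730.9, and from 375.4 to 1089 in MCU-KO mice, with a median of 786.8. Both ends of the range were control mice, mouse 5 at the bottom and mouse 3 at the top. The log2 fold change was -0.09 with an SE of 0.29, and the 95% interval ran from -0.69 to 0.51. The log2 ratio of Gabra4 to Gabra3 was 0.59 ± 0.81 in control and 0.49 ± 0.52 in MCU-KO mice, a difference of -0.09 (exact permutation p = 0.786, adjusted p = 0.786).

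Gabra2 ranged from 42.1 to 361 normalized counts in control mice, with a median of 255, and from 1.94 to 290.3 in MCU-KO mice, with a median of 145.1. The low end of the MCU-KO group was mouse 7, with 2 counts, below the detection floor, and mouse 4 was next. The log2 fold change was -0.59 with an SE of 0.68, and the 95% interval of -2.01 to 0.83 includes a difference larger than 2-fold downward. The estimate itself was -1.07 with the mouse number as a block and -1.22 with limma-voom, neither past the threshold. Without MCU-KO mouse 7 it was -0.395, also short of the threshold. The log2 ratio of Gabra2 to Gabra3 was -2.88 ± 1.29 in control and -3.72 ± 1.59 in MCU-KO mice, a difference of -0.83 (exact permutation p = 0.275, adjusted p = 0.578).

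Gabrb1 ranged from 1154 to 3557 normalized counts in control mice, with a median of 1997, and from 2143 to 2849 in MCU-KO mice, with a median of 2378. The MCU-KO mice lay close together within the wider control range. The coefficient of variation was 36.6% in control and 10.7% in MCU-KO mice, where counting error alone would give 2.1% and 2.02%, and the difference in spread was not tested. The log2 fold change was 0.20 with an SE of 0.18, and the 95% interval ran from -0.17 to 0.57. Without control mouse 2, the highest of all 16, the log2 fold change was 0.35 (edgeR unadjusted p = 0.0418, adjusted p = 1.00), the only setting that left out a mouse with 1 of the 7 at an unadjusted p under 0.05.

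Gabrg1 ranged from 51.8 to 342.2 normalized counts in control mice, with a median of 101.6, and from 26 to 546.7 in MCU-KO mice, with a median of 200.7. Here the MCU-KO group held both the lowest value, mouse 1, and the highest, mouse 3. The log2 fold change was 0.55 with an SE of 0.59, and the 95% interval ran from -0.66 to 1.77. The log2 ratio of Gabrg1 to Gabrb1 was -3.11 ± 0.89 in control and -2.91 ± 1.21 in MCU-KO mice, a difference of 0.20 (exact permutation p = 0.72, adjusted p = 0.786).

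**Figure D3:**
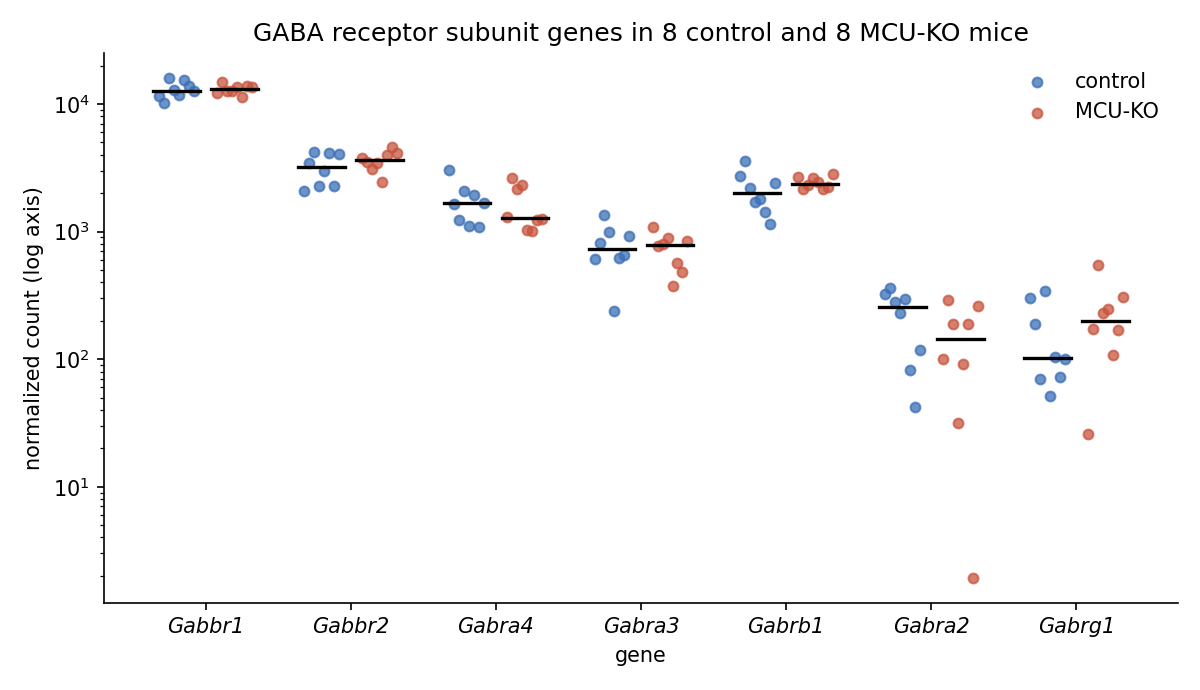
Normalized counts (log axis) of the 7 subunit genes in each of 8 control and 8 MCU-KO mice, with points for mice and black lines for medians. The genotypes overlap for every gene, the MCU-KO mice lie within 2143 to 2849 for Gabrb1, and the single point near the bottom is MCU-KO mouse 7 for Gabra2.

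The adjusted p of edgeR's quasi-likelihood test was 1.00 for all 7 genes. For 5 of the 7 the 95% interval lay within a 2-fold difference in either direction. For Gabra2 and Gabrg1, the genes with the fewest counts, it reached past a 2-fold difference downward for the first and upward for the second.

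**Figure D4:**
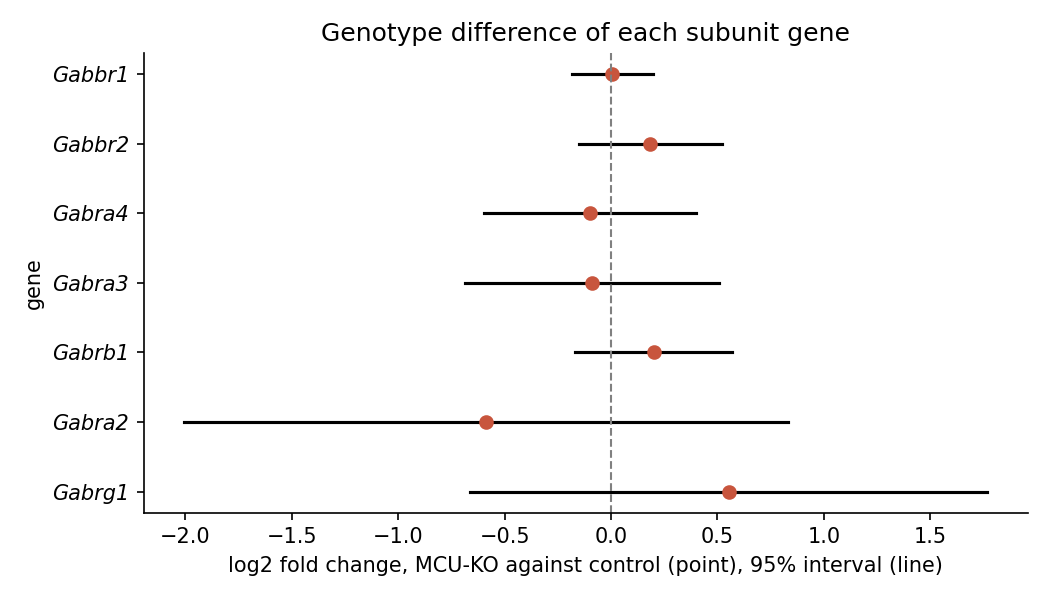
Log2 fold change of each subunit gene in 8 MCU-KO against 8 control mice (point) with its 95% interval (line), and a dashed line at no difference. All 7 intervals hold 0, from the narrowest, Gabbr1 at -0.18 to 0.20, to the widest, Gabra2 at -2.01 to 0.83.

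The class shares were also computed in MCU-KO mice. Gabra4 made up 26.3 ± 9.33% of the alpha level in MCU-KO mice, Gabra3 19.1 ± 8.5% and Gabra2 1.81 ± 1.31%. Gabrb1 made up 40.7 ± 5.27% of the beta level and Gabrg1 6.31 ± 4.47% of the gamma and other level. Each of these means lay within 1 SD of the control mean, and the differences in shares were not tested.

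Genes that act with these receptors were read from the same fit, and edgeR's test called 0 genes of these lists, beside the background of 0.178%. At an unadjusted p under 0.05 it had 2 of them, from lists with 7, 18, 3, 10, 4 and 9 genes tested. Beside a background of 4.41% of all genes tested, these 2 are no excess. Clptm1, the only such gene among the 18 tested for assembly and anchoring, is described here as the smallest p of its list. Of 14 other GABA-A subunits 7 were tested, 6 higher and 1 lower in MCU-KO mice, with a median log2 fold change of 0.18.

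All 18 genes of GABA-A assembly and anchoring were tested, with 9 higher and 9 lower. Among them Clptm1, which holds GABA-A subunits in the endoplasmic reticulum, had the smallest p, with a log2 fold change of -0.32 and an SE of 0.10 (edgeR unadjusted p = 0.00609, adjusted p = 0.755). Its mean was 4359 ± 420 normalized counts in control and 3504 ± 520 in MCU-KO mice, and the groups overlapped. Of 4 auxiliary subunits of the GABA-B receptor 3 were tested, all 3 higher, with Kctd12b at the smallest unadjusted p of 0.366 in edgeR's test. Of 11 GABA-B effectors, which are G proteins, their regulators and the potassium channel subunits they open, 10 were tested, with 6 higher and 4 lower. The G protein subunit gene Gnai1 had the smallest p of these, with a log2 fold change of 0.29 and an SE of 0.17 (edgeR unadjusted p = 0.0961). All 4 chloride transport genes were tested, with 3 higher and 1 lower, and the chloride channel gene Clcn2 had the smallest unadjusted p, 0.163 in edgeR's test. Of 10 genes of GABA synthesis, transport and breakdown 9 were tested, with 6 higher and 3 lower. The smallest p was that of Abat, which encodes the enzyme that breaks GABA down, with a log2 fold change of -0.27 and an SE of 0.14 (edgeR unadjusted p = 0.0656).

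In the genome, 4 of the 7 genes form a cluster. Gabrg1 (ENSMUSG00000001260), Gabra2 (ENSMUSG00000000560), Gabra4 (ENSMUSG00000029211) and Gabrb1 (ENSMUSG00000029212) lie on chromosome 5 between 70751047 and 72149037 (GRCm38), a span of 1.40 Mb with 5 counted genes, the other being Cox7b2. The first 3 are on the minus strand and Gabrb1 is on the plus strand. Gabra4 and Gabrb1 start head to head and overlap by 196 bases, 71658113 to 71658308, and reads there could not be assigned without strand, which the sources used here do not give. Within the cluster, the levels per kb in control mice spanned from 19.6 for Gabrg1 to 285 for Gabra4. Gabra3 (ENSMUSG00000031343) lies on chromosome X, from 72432681 to 72656848, Gabbr1 (ENSMUSG00000024462) on chromosome 17, from 37045966 to 37075067, and Gabbr2 (ENSMUSG00000039809) on chromosome 4, from 46662305 to 46991873.

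Joint variation of the 7 genes was described across the 16 mice. Over the 21 pairs, Pearson's r of log2 CPM, centred within genotype, ran from -0.542 for Gabrb1 and Gabbr1 to 0.544 for Gabra4 and Gabrg1. The adjoining genes Gabra4 and Gabrb1 had r = 0.229, and the heterodimer partners Gabbr1 and Gabbr2 r = 0.256. The mice share a protocol and differ in depth, and these values are a description.

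The gene most like each of the 7 by the same measure was looked for among all genes tested. It was Wdr48 for Gabra2 (r = 0.862, 16 mice), Tmem177 for Gabra3 (r = 0.846), Sfpq for Gabra4 (r = 0.781), Txndc12 for Gabrb1 (r = 0.831), Mtmr1 for Gabrg1 (r = 0.833), Ntng1 for Gabbr1 (r = 0.827) and Rps6ka4 for Gabbr2 (r = 0.833). As the highest of 12390 values each, these coefficients have no test. Without the 2 mice farthest from the median they were between 0.620 for Tmem177 and 0.806 for Wdr48.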

How the data were processed

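Sequenced RiboTag RNA of 8 control and 8 MCU-KO mice was used here, 1 library per mouse, with groups taken from the sample labels. The paper gives a larger number of MCU-KO mice for its RNA sequencing than the 8 used here. The authors trimmed, aligned (STAR, mm10) and counted reads per gene (htseq-count), and deposited raw counts without normalization. Not given in the sources used here are tool versions, the strand setting and the release of the Ensembl annotation. By the paper, the control mice came from crosses of DAT-Cre+/+ with C57/BL6 mice, and MCU-KO mice from crosses of MCU fl/fl with DAT-Cre mice. The 2 groups were thus bred separately and were not littermates of each other. Nothing says whether mice within a group shared a litter, or which mice shared a preparation. Among genes above a set mean count, identical counts between any 2 libraries reached at most 1.78%, so none was a duplicate.

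Genotypes were compared with edgeR 4.0.16 in R 4.3.3 (filterByExpr, TMM, glmQLFTest, Benjamini-Hochberg adjustment over 12390 genes, threshold 0.05). Normalized counts are counts divided by DESeq2 1.42.0 size factors. Lengths, coordinates and coding sequences are from GENCODE M21 (24942 genes matched). Ratios used a pseudocount of 1 normalized count per kb. Exact tests enumerated 256 sign patterns or 12870 splits. Alternatives were DESeq2, limma 3.58.1 (voom), other normalizations, filters, lengths and pseudocounts (0.1 and 5), a mouse-number block, covariates (astrocyte markers, GABAergic markers, Xist) and each mouse left out. The fits were tested on simulated counts. Python 3.11.15, numpy 2.4.6, pandas 2.3.3, biopython 1.88 and matplotlib 3.10.9 were used.

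The 7 genes, the lists and the tests were chosen with earlier results of these data known. The genes named are the 7, of each list the gene with the smallest p, the other GABA-A subunits above 3 counts in all 8 control mice, some of which are not reported here, and for each of the 7 the gene with the highest correlation of log2 CPM (prior count 2). Detection floors cover counting error only.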

Additional observations from a re-analysis of the deposited data

Results flagged for a closer look

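In groups of 8 mice, the library totals, the genotype ratios and the normalized counts of the named genes and Mcu were screened for a single mouse far from the others, over 46 groups, of which about 2.3 would be singled out by chance. The total of MCU-KO mouse 8, 14129527 counts, stood apart as the lowest of its group, with the next at 19897268. Gabrq in MCU-KO mouse 6 was at 747.4 normalized counts, with the next mouse at 241.3. No value of the 7 subunit genes was singled out.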

How the results depend on the processing

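None of the 7 subunit genes was called under any alternative, with adjusted p between 0.82 and 1.00 in all settings but those that left out a mouse. Requiring 10 counts in every mouse left Gabra2 untested. Over all genes, 22 were called, 14 with the replicate block and 90 with DESeq2, and leaving out a mouse gave 18 to 24. Same-numbered mice did not deviate together (correlations of -0.0612 to 0.0309 over 8 pairs, none highest with its own number). These values gave no sign that the number marks a pair, but they cannot exclude a shared preparation. The block changed no call of the 7. Leaving out a mouse moved the log2 fold changes of Gabra3 between -0.221 and 0.0766, of Gabra4 between -0.233 and 0.0687 and of Gabbr1 between -0.0333 and 0.057, and the genotype differences of the log2 ratios of Gabra4 to Gabra3 between -0.284 and 0.0646 and of Gabrg1 to Gabrb1 between -0.037 and 0.569. These directions changed and the values stayed short of the threshold. Within control mice, the log2 ratio of Gabra4 to Gabra3 was 1.05 with the longest coding transcript, 1.1 with the coding length and 0.43 to 0.78 with a mouse left out, and that of Gabra3 to Gabrb1 was -1.68 with the coding length. With the coding length Gabra3 made up 13.1% of the alpha and Gabrb1 58.2% of the beta level. The cause of the shift without control mouse 3 was not tested. The others follow from the lengths. For Gabra2 the log2 fold change was -0.59, and -1.07 with the replicate block and -1.22 with limma-voom, and the cause was not tested. With a mouse left out it ran from -0.812 to -0.395, and the value nearest to no difference was that without MCU-KO mouse 7. For Gabra2 and Gabrg1, counting error at the mean count of each group would give a coefficient of variation of 6.52% to 8.38%. The spread between mice was 55.5% to 73.1%. Their lowest mice had 2 and 27 counts, where counting error is larger.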
